A study of Mus musculus with 4 samples.

Results

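The genes described here are 43 genes of the motile cilium, chosen by gene symbol from a list of transcription factors, axonemal dyneins and other axoneme and ciliated cell genes, among the 17780 genes measured in mouse lung. All 43 were found in the expression table, and all passed the filter of at least 20 estimated reads on average over the 4 libraries, as did 14088 of the 17780 genes. No measured value was used to choose them, but the list was drawn up with earlier results of these data known.

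Motile cilia are hair-like projections that beat on the multiciliated cells of the airway lining and move mucus along it. Each holds an axoneme, a cylinder of doublet microtubules around a central pair, on which rows of outer and inner dynein arms slide neighbouring doublets past each other, while nexin links, radial spokes and the central apparatus turn sliding into bending. The transcription factor Foxj1 and the RFX factors, which bind the X-box element, switch on this gene programme in cells that make motile cilia, and loss of many of its members causes primary ciliary dyskinesia in people.

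Lung RNA-Seq was available from 4 groups of C57BL/6 mice with 1 library per group: vehicle, amiodarone, dabigatran, and amiodarone + dabigatran. Amiodarone is an antiarrhythmic drug known to damage the lung, dabigatran is a direct thrombin inhibitor used as an anticoagulant, and the design asks whether the second alters the lung response to the first. By the study's methods the animals were male C57BL/6J mice bought at 6 to 7 weeks of age, given amiodarone at 300 mg per kg per day, dabigatran at 60 mg per kg per day or both by mouth 5 times per week for 4 weeks. The tissue was left lung, dated to day 26 in the methods and labelled as 28 days of treatment, and how many animals entered each library is not given in the sources used here. No group carried a genetic change.

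The libraries held 17498486 to 18903401 estimated reads, and the motile cilium genes drew from 199 reads in the sparsest gene and library to 9218 reads. Levels are given in FPKM, sequenced fragments per kilobase corrected for library depth, which allows levels of different genes to be set side by side. Each ratio of FPKM between 2 libraries carries an exact 95% Clopper-Pearson interval from their reads, and a ratio is called beyond counting error where that interval excludes 1. These intervals cover counting error only, sequenced fragments are not independent molecules, and with 1 library per group they compare libraries and not treatments, so no test across animals exists. Whole lung was sequenced, so fewer ciliated cells and less RNA per ciliated cell cannot be told apart. Ciliated cell transcripts were plainly present: every one of the 43 genes had reads in every library, with mean levels from 1.56 FPKM for Rfx3 to 432 FPKM for Tppp3 and a median of 8.76 FPKM.

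RefSeq promoter windows on GRCm38.p6, the 250 bases before an annotated transcription start, were at hand for 37 of the 43 genes (not for Foxj1, Dnah3, Rsph1, Rsph4a, Cfap54 and Tppp3). They were searched on both strands for GTTGCC, 1 arm of the RFX X-box. This X-box arm was found in 16 of the 37 genes (43.2%) and in 3195 of 27025 genes with such windows (11.8%). The full palindrome GTTNCCNNGGNAAC, which overlaps the X-box arm, was found in 0 of the 37 and in 0.444% of all, and the forkhead core TGTTTAC in 4 of the 37 (10.8%) and in 3.54% of all. The 5 windows below belong to the genes that held a X-box arm and were at least 1.5-fold lower in the amiodarone library compared with vehicle. They are shown because they hold a motif of the RFX factors and belong to some of the members with the largest differences. Capitals mark the X-box arm, read as GTTGCC on the strand of the gene or as GGCAAC where it lies on the other strand.
Mlf1, chr3:67373847-67374096, plus strand: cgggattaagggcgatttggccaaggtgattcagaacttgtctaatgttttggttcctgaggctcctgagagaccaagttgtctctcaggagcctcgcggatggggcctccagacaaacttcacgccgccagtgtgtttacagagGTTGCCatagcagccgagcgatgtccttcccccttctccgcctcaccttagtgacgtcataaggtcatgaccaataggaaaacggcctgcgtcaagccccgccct
Lrrc23, chr6:124779728-124779977, minus strand: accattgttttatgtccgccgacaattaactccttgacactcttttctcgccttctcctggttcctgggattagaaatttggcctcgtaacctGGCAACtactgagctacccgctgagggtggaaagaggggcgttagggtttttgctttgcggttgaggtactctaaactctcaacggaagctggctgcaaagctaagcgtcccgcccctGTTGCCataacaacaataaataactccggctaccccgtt
Dynlrb2, chr8:116504765-116504973, plus strand: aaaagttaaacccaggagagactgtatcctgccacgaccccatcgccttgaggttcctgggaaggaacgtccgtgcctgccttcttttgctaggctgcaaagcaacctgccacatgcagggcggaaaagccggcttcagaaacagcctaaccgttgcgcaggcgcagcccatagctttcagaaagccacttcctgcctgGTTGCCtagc
Fam183b, chr11:58801961-58802210, minus strand: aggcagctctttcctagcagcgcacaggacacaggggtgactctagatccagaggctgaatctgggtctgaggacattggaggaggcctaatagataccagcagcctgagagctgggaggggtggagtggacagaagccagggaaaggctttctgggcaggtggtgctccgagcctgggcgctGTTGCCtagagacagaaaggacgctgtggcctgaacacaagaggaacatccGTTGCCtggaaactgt
Tekt1, chr11:72361883-72362132, minus strand: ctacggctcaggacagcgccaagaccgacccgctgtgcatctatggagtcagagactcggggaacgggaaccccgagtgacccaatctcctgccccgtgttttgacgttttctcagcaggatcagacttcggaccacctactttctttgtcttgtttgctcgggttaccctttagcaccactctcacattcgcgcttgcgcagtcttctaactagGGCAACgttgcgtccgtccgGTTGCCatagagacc

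The X-box arm began 105 bases before the start in Mlf1, 157 and 39 bases before it in Lrrc23, 51 in Dynlrb2, 67 and 16 in Fam183b and 35 and 15 in Tekt1. The Dynlrb2 window holds 209 bases, because the 41 bases nearest the start lie in an annotated exon and were left out. Over the 16 genes with a X-box arm the median log2 difference between amiodarone and vehicle was -0.54, and over the 21 genes without one it was -0.37. At least 1.5-fold lower were 5 of the 16 and 3 of the 21 (7.09% of all genes). The 3 without an arm were Rsph9, Dnaic1 and Tekt4, with amiodarone to vehicle ratios of 0.582, 0.591 and 0.661. The split overlaps with transcript length: of the long dynein heavy chain genes with a window, only Dnah10 held an arm. The part of length in this difference was not tested. A gene can have several starts: the windows of Mlf1 and Dynlrb2 lie before the outermost start of the gene, and those of Lrrc23, Fam183b and Tekt1 before a start 711, 261 and 560 bases inside it. The bases after the start were found in a GENCODE transcript of the gene for 29 of 40 windows of the members, among them all those printed except that of Dynlrb2. A match is only a run of letters, and no binding was measured.

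Motile cilium genes were lower in the lung that received amiodarone. All 43 genes had a lower FPKM in the amiodarone library compared with vehicle, against 58.8% of all genes measured, and 39 of the 43 were lower beyond counting error (29.4% of all genes). None was higher beyond counting error (18.8%). The median difference in log2(FPKM + 0.1) was -0.39 for the 43 genes and -0.05 for all genes, with ratios from 0.564 for Lrrc23 to 0.980 for Rfx3. At least 1.5-fold lower were 10 of the 43 (7.09% of all genes): Lrrc23, Fam183b, Rsph9, Dnaic1, Tekt1, Mlf1, Tppp3, Dynlrb2, Tekt4 and Rsph1. This number was 6 after rescaling the libraries by the median ratio and 5 after centring on genes of the same length class. For these settings the share of all genes was not computed. Within counting error were Rfx3, Dnah1, Hydin and Cfap54.

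Together the 43 genes took 0.265% of the estimated reads with vehicle (exact 95% interval 0.263 to 0.267), 0.200% with amiodarone (0.198 to 0.202), 0.244% with dabigatran (0.242 to 0.247) and 0.214% with amiodarone + dabigatran (0.212 to 0.216). The intervals of the 4 libraries do not overlap, but with this many reads small differences also separate them. Nor do they overlap for a list of 10 alveolar type 1 cell genes, which took 0.9828% with vehicle and 0.9654% with amiodarone. The share of the 43 genes was 24.7% lower in the amiodarone library compared with vehicle. It was 12.4% lower in the combination library than in the dabigatran library. Rfx3, Tppp3 and the tubulin gene Tubb4b are also used outside ciliated cells. Without them the share was 24.2% lower with amiodarone than with vehicle.

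**Figure D1:**
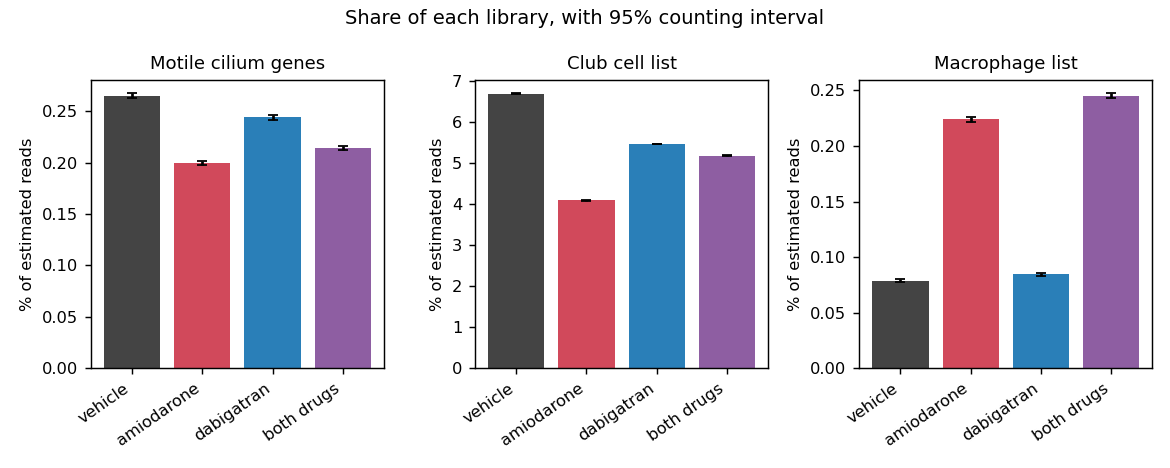
Percentage of each library's estimated reads on the 43 motile cilium genes, on a list of 12 club cell genes and on a list of 12 macrophage genes, 1 bar per library with the exact 95% counting interval. Motile cilium genes stood at 0.265% with vehicle and 0.200% with amiodarone, club cell genes at 6.69% and 4.09%, and macrophage genes at 0.0788% and 0.224%.

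Of the transcription factors, Foxj1, the master regulator of motile ciliogenesis, stood at 73.2 FPKM with vehicle, 62.4 after amiodarone, 65.9 after dabigatran and 58.6 after both. The amiodarone to vehicle ratio was 0.853 (0.811 to 0.896), among the 8 nearest to 1 of the 43 genes. Foxj1 and the dynein gene Dnah3 were the 2 members that lay lower beyond counting error in all 4 comparisons made. Rfx3, an X-box binding factor with a wider range of use, had 1.52, 1.49, 1.73 and 1.48 FPKM in the same order of libraries. Its ratio of 0.980 (0.815 to 1.18) lay within counting error, and it was highest in the dabigatran library.

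The 9 axonemal dynein heavy chains, the motor subunits of the outer and inner arms, were all lower with amiodarone than with vehicle (58.8% of all genes). Of them 8 were lower beyond counting error (29.4%) and none by 1.5-fold (7.09%), with a median log2 difference of -0.33. Dnah1, an inner arm heavy chain, was at 1.78 FPKM with vehicle, 1.67 after amiodarone, 1.77 after dabigatran and 1.46 after both, and its ratio of 0.938 (0.815 to 1.08) lay within counting error. Dnah2, an inner arm heavy chain as well, had 1.92 FPKM with vehicle and 1.51, 1.43 and 1.43 in the libraries with amiodarone, dabigatran and both, so that all 3 drug libraries lay below vehicle. Dnah10, another inner arm chain, split the libraries by amiodarone: 3.42 FPKM with vehicle and 3.22 with dabigatran, against 2.43 with amiodarone and 2.2 with both. Dnah12 had the same split, with 2.97 FPKM with vehicle, 3.16 with dabigatran, 2.49 with amiodarone and 2.21 with both. Of the others, the outer arm chains Dnah5, Dnah9 and Dnah11 and the inner arm chains Dnah3 and Dnah6 had ratios from 0.688 for Dnah6 to 0.836 for Dnah9.

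The smaller dynein subunits and an assembly factor were also lower in the amiodarone library. All 5 were lower beyond counting error (29.4% of all genes), 2 of them by at least 1.5-fold (7.09%). The median log2 difference was -0.51, with ratios that overlap those of the heavy chains. Dnaic1, an outer arm intermediate chain, had 7.28 FPKM with vehicle, 4.30 after amiodarone, 7.0 after dabigatran and 5.90 after both. Its amiodarone to vehicle ratio was 0.591 (0.492 to 0.708), on 199 reads with amiodarone and 313 with vehicle. Dynlrb2, a roadblock-type light chain gene whose window with 1 X-box arm is printed above, was the third highest member by level, at 104 FPKM with vehicle, 67.1 after amiodarone, 88.6 after dabigatran and 75.3 after both, a ratio of 0.648 (0.581 to 0.721). The intermediate chain Dnaic2, the inner arm light chain Dnali1 and the assembly factor Zmynd10 had ratios of 0.795, 0.703 and 0.817.

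**Figure D2:**
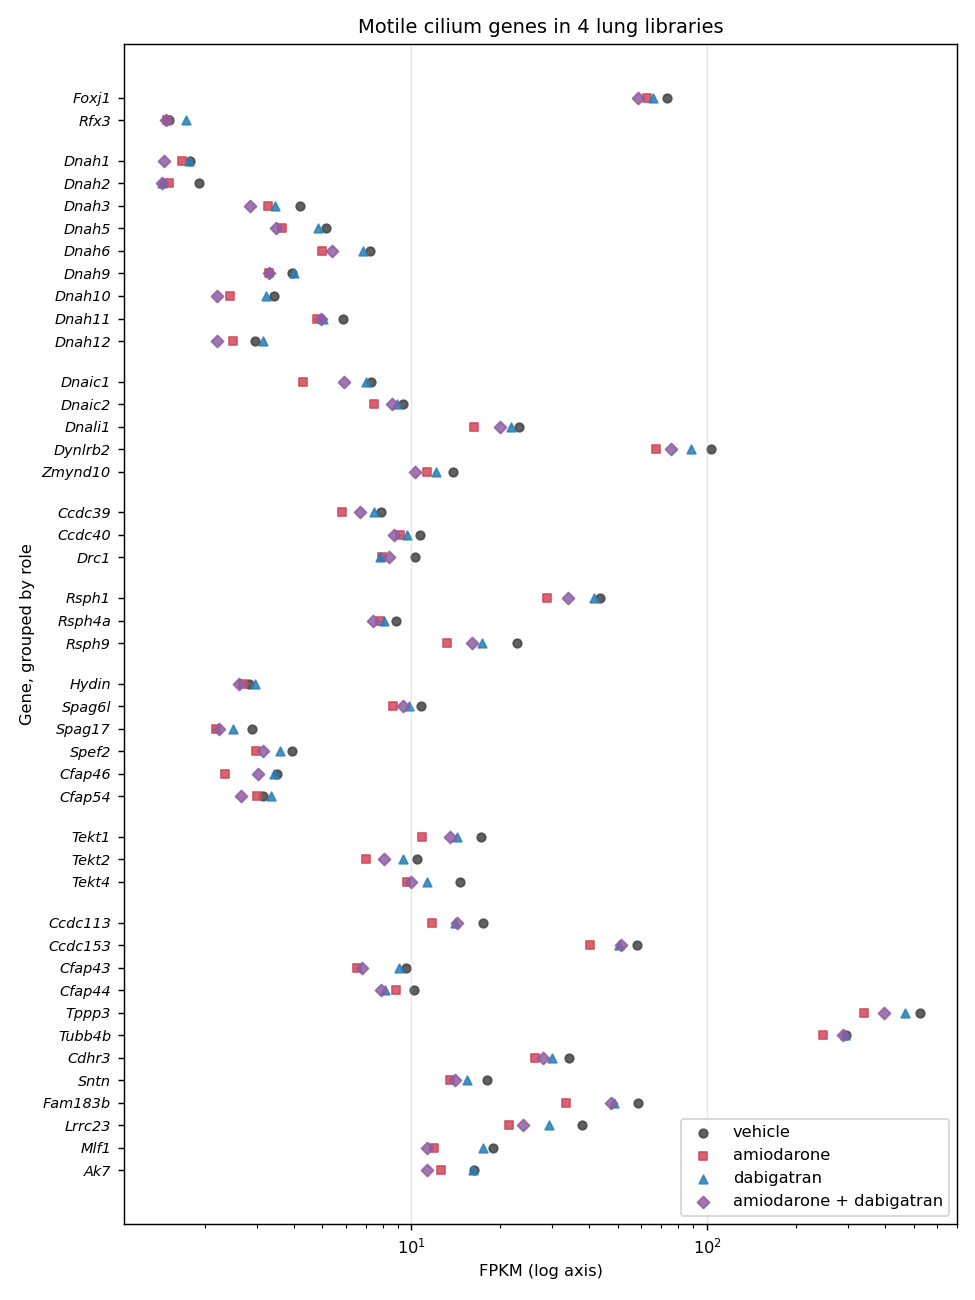
FPKM of each of the 43 genes on a log axis, 1 point per library, with genes grouped by role from the transcription factors at the top to the other axoneme and ciliated cell genes at the bottom. The vehicle library was the highest of the 4 for 38 of the 43 genes, and levels ran from 1.43 FPKM for Dnah2 to 524 FPKM for Tppp3.

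Ccdc39 and Ccdc40 form the molecular ruler that sets the repeat along the doublet, and Drc1 is a subunit of the nexin-dynein regulatory complex. All 3 were lower with amiodarone beyond counting error (29.4% of all genes), with a median log2 difference of -0.37. Ccdc40 had 10.7 FPKM with vehicle, 9.18 after amiodarone, 9.70 after dabigatran and 8.74 after both, and its ratio of 0.860 (0.781 to 0.947) was among the 8 nearest to 1. Drc1 stood at 10.3 FPKM with vehicle, and the other libraries lay close together at 7.94 with amiodarone, 7.84 with dabigatran and 8.42 with both. Ccdc39 had an amiodarone to vehicle ratio of 0.735.

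The 3 radial spoke genes encode proteins of the spoke head and differed in the size of the difference. Rsph9 had 22.8 FPKM with vehicle, 13.3 after amiodarone, 17.3 after dabigatran and 16 after both, so that vehicle stood apart above the rest, and the amiodarone to vehicle ratio was 0.582 (0.490 to 0.691). Rsph4a had 8.88, 7.81, 8.10 and 7.43 FPKM in the same order, with a ratio of 0.880 (0.779 to 0.992) that lay just beyond counting error. Rsph1 had a ratio of 0.664. The intervals of Rsph9 and Rsph4a do not overlap, which is a difference between genes within the same pair of libraries.

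The central apparatus genes were lower with amiodarone in 6 of 6 (58.8% of all genes), beyond counting error in 4 (29.4%), with a median log2 difference of -0.35. Hydin, a very large protein of the central pair projections, had 2.83 FPKM with vehicle, 2.69 after amiodarone, 2.95 after dabigatran and 2.61 after both, a ratio of 0.951 (0.860 to 1.05). Cfap54, also of the central apparatus, had 3.15, 3.0, 3.36 and 2.65 FPKM in that order, a ratio of 0.952 (0.836 to 1.09). Both were highest in the dabigatran library and lowest in the combination library. Cfap46, by contrast, was lowest with amiodarone alone, at 3.50 FPKM with vehicle, 2.34 after amiodarone, 3.44 after dabigatran and 3.03 after both, a ratio of 0.669 (0.581 to 0.769). Spag6l, Spag17 and Spef2 had ratios from 0.754 to 0.802.

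The 3 tektins, filament proteins that run inside the doublet wall, were lower with amiodarone by similar amounts, with ratios from 0.632 to 0.673 and a median log2 difference of -0.59. Tekt1, whose window holds 2 X-box arms, had 17.2 FPKM with vehicle, 10.9 after amiodarone, 14.3 after dabigatran and 13.6 after both, a ratio of 0.632 (0.541 to 0.739). Tekt4 had 14.6, 9.65, 11.3 and 9.98 FPKM in the same order, a ratio of 0.661 (0.560 to 0.778). Tekt2 had a ratio of 0.673. All 3 were highest with vehicle and lowest with amiodarone.

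The other 12 axoneme and ciliated cell genes were all lower with amiodarone beyond counting error (29.4% of all genes), 4 of them by at least 1.5-fold (7.09%). Their median log2 difference was -0.53. Lrrc23, a radial spoke protein, had the lowest ratio of the 43 genes, at 37.8 FPKM with vehicle, 21.3 after amiodarone, 29.3 after dabigatran and 23.8 after both, a ratio of 0.564 (0.508 to 0.625). Fam183b, a ciliated cell gene, had 58.6 FPKM with vehicle, 33.3 after amiodarone, 48.4 after dabigatran and 47.5 after both, a ratio of 0.569 (0.494 to 0.656). Mlf1, whose window holds 1 X-box arm and the forkhead core, had 18.8 FPKM with vehicle and 17.4 with dabigatran, against 12.0 with amiodarone and 11.3 with both. For Mlf1 the libraries therefore fell in 2 pairs by the presence of amiodarone, with a ratio to vehicle of 0.634 (0.536 to 0.750).

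The microtubule-associated gene Tppp3 was the most abundant member, at 524 FPKM with vehicle, 339 after amiodarone, 468 after dabigatran and 396 after both, and its ratio of 0.647 (0.627 to 0.668) rests on 6444 reads with amiodarone and 9218 with vehicle. Tubb4b, the beta-tubulin of axonemes that other cells use too, came next at 295, 247, 294 and 288 FPKM in the same order, so that only the amiodarone library stood below the others, by a ratio of 0.839 (0.812 to 0.866). Ccdc153 had 57.8, 40.3, 50.5 and 51.1 FPKM, a ratio of 0.697 (0.626 to 0.776). Ak7, an adenylate kinase of the axoneme, had 16.2 FPKM both with vehicle and with dabigatran, 12.6 with amiodarone and 11.3 with both. Cfap44 had 10.2 FPKM with vehicle, 8.85 after amiodarone, 8.16 after dabigatran and 7.89 after both, a ratio of 0.867 (0.785 to 0.957). Cfap43, Ccdc113, Cdhr3 and the ciliary tip gene Sntn had ratios from 0.673 to 0.765.

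**Figure D3:**
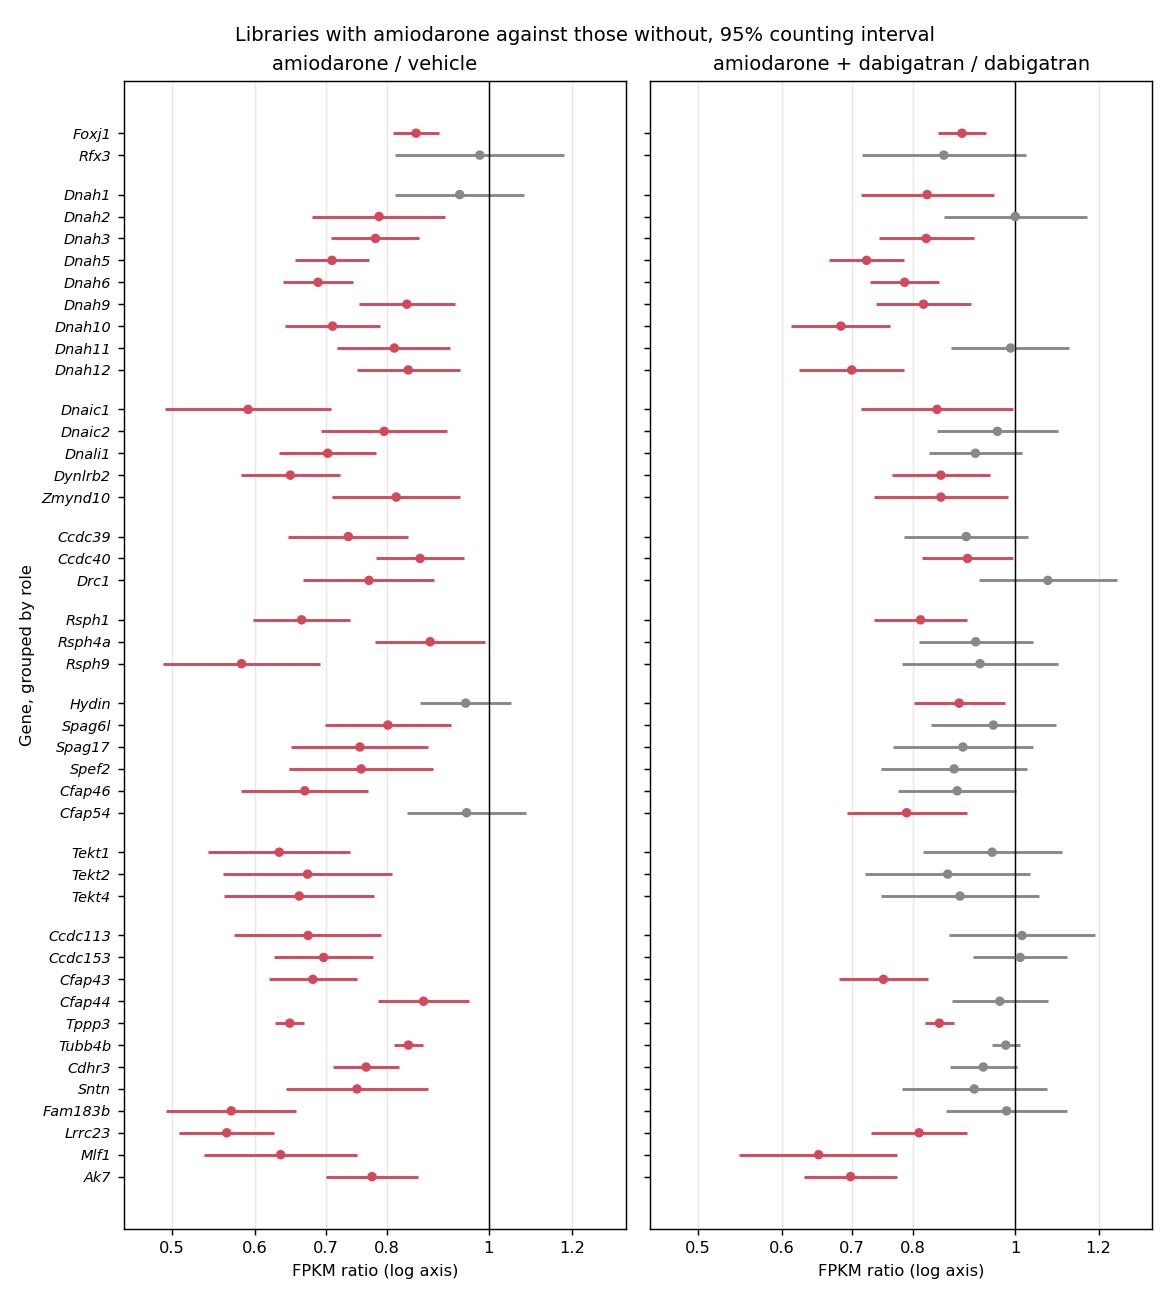
Ratio of FPKM on a log axis for each of the 43 genes, amiodarone over vehicle on the left and amiodarone + dabigatran over dabigatran on the right, with exact 95% counting intervals and red where the interval lies below 1. On the left 39 of 43 intervals lie below 1, and on the right 20 of 43.

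The same question can be asked in the presence of dabigatran with a pair of libraries that shares none with the first. In the combination library 39 of the 43 genes had a lower FPKM than in the dabigatran library (53% of all genes), 20 of them beyond counting error (23.1%), and none was higher beyond it (18.8%). Long genes of any kind were often lower in this pair. At 8 kb or more, 79.8% of all genes had a lower FPKM. Lower beyond counting error at this length were 308 of 583 genes, and 9 of 11 members. The median log2 difference of the 43 genes was -0.17, against -0.02 for all genes. It was -0.12 after centring on genes of the same length class. Mlf1 alone was at least 1.5-fold lower (4.49%), with a ratio of 0.651 (0.547 to 0.773). With a pseudocount of 1 none was. Next came Dnah10 at 0.683 (0.613 to 0.761), Ak7 at 0.698 (0.630 to 0.773) and Dnah12 at 0.699 (0.624 to 0.784). The 3 genes with a higher FPKM (46.5% of all genes), Drc1, Ccdc113 and Ccdc153, lay within counting error, and Dnah2 was equal in both libraries.

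Set side by side, 39 of the 43 genes (90.7%) were lower with amiodarone both without and with dabigatran, compared with 38.1% of all genes, and 17 (39.5%) were so beyond counting error in both pairs, compared with 13.1%. The sizes for single genes were not alike in the 2 pairs: across the 43 genes Pearson's r between the log2 differences was 0.07, and across all genes 0.62. These are correlations across genes, which are not independent replicates. The 43 genes also span a narrow range, with ratios of 0.564 to 0.980 in the first pair. A narrow range by itself lowers r, so the value for all genes is not a like measure. Lrrc23, with a ratio of 0.564 in the first pair, had 0.810 in the second. Mlf1 had nearly the same ratio in both.

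Dabigatran alone went with smaller differences. In the dabigatran library 38 of the 43 genes were lower than with vehicle (49.1% of all genes), 17 of them beyond counting error (12.9%). None was higher beyond counting error (14.7%), and none reached 1.5-fold lower (1.46%). The median log2 difference was -0.13, against 0.00 for all genes. Dnah2 had the lowest ratio at 0.745 (0.642 to 0.864), followed by Drc1 at 0.760 (0.656 to 0.879), Rsph9 at 0.760 (0.647 to 0.893) and Tekt4 at 0.771 (0.657 to 0.904). Rfx3 had the highest, at 1.14 (0.949 to 1.37). Of the 5 genes above 1 (50.2%), the others were Dnah9, Dnah12, Hydin and Cfap54, all within counting error.

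Adding dabigatran to amiodarone went with higher values for some members and lower values for others. Compared with the amiodarone library, 26 of the 43 genes were higher in the combination library (57.5% of all genes), 15 of them beyond counting error (20.4%), and 17 were lower (42%), 4 of them beyond counting error (14.4%). None reached 1.5-fold higher (2.51%), and the median log2 difference was 0.06 against 0.03 for all genes. Fam183b had the highest ratio at 1.42 (1.23 to 1.65), then Dnaic1 at 1.37 (1.14 to 1.66), Cfap46 at 1.30 (1.12 to 1.49) and Ccdc153 at 1.27 (1.14 to 1.42). The 4 genes lower beyond counting error were Foxj1 at 0.939 (0.892 to 0.989), Dnah3 at 0.869 (0.783 to 0.964), Dnah12 at 0.888 (0.788 to 0.9996) and Cfap44 at 0.892 (0.803 to 0.989). For Ccdc39, counted among the 15, the estimated reads went the other way, from 423 to 409, so its higher FPKM rests on the transcript length that was estimated in each library. After rescaling by the median ratio 10 members were higher and 8 lower beyond counting error, a setting for which the shares of all genes were not computed.

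Ranked over the 4 libraries, vehicle was highest for 38 of the 43 genes (28.6% of all genes) and dabigatran for the other 5 (27.5%). The amiodarone library was lowest for 25 genes (37.5% of all genes), the combination library for 17 (21.3%) and the dabigatran library for 1 (19.9%), which was Drc1. For 38 of the 43 genes both libraries without amiodarone lay above both libraries with it, compared with 32.0% of all genes. The exceptions were Dnah2, Drc1, Ccdc113, Ccdc153 and Cfap44. No member was highest in a library that held amiodarone. Of all genes 21.15% were highest in the amiodarone library and 22.75% in the combination library.

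Among the 43 genes the size of the amiodarone difference followed transcript length, which the choice of genes did not use. Effective lengths, estimated from reads and FPKM, ran from 458 bases for Dynlrb2 to 15784 bases for Hydin. In the 4 genes under 1 kb the median log2 difference between amiodarone and vehicle was -0.70, in the 11 genes of 1 to 2 kb -0.59, in the 10 genes of 2 to 4 kb -0.37, in the 7 genes of 4 to 8 kb -0.39 and in the 11 genes of 8 kb or more -0.25. Over all genes measured the medians of these classes lay between -0.08 and -0.04. Pearson's r with log2 length was 0.60 over the 43 genes and 0.00 over 14079 genes. All 4 members within counting error, Rfx3, Dnah1, Hydin and Cfap54, were in the longest class.

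Length went together with level among the 43 genes, with r = -0.79 between log2 length and log2 FPKM, so long members were also the low ones. Of the 9 dynein heavy chains 8 are in the longest class, so length and role in the axoneme overlap. Between the combination and amiodarone libraries the order was turned round: the median was 0.31 in the 4 shortest genes and -0.07 in the 11 longest, with r = -0.61. In that comparison all genes showed a weaker order of the same direction, from 0.09 to -0.06, with r = -0.11. The amiodarone library stands in both comparisons, on opposite sides of the ratio. A turned order can therefore come from this library alone, and the orders are not independent. Against dabigatran the combination library had medians of -0.07 in the shortest and -0.28 in the longest members, and 0.10 and -0.16 in all genes of those lengths. For this pair r was -0.31 over the members and -0.18 over all genes. For dabigatran against vehicle the medians were -0.25 in the shortest and -0.01 in the longest members, and -0.09 and 0.07 in all genes of those lengths, with r = 0.45 over the members and 0.17 over all genes. Differences in RNA fragmentation between libraries were not measured, and their part in these values was not tested.

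**Figure D4:**
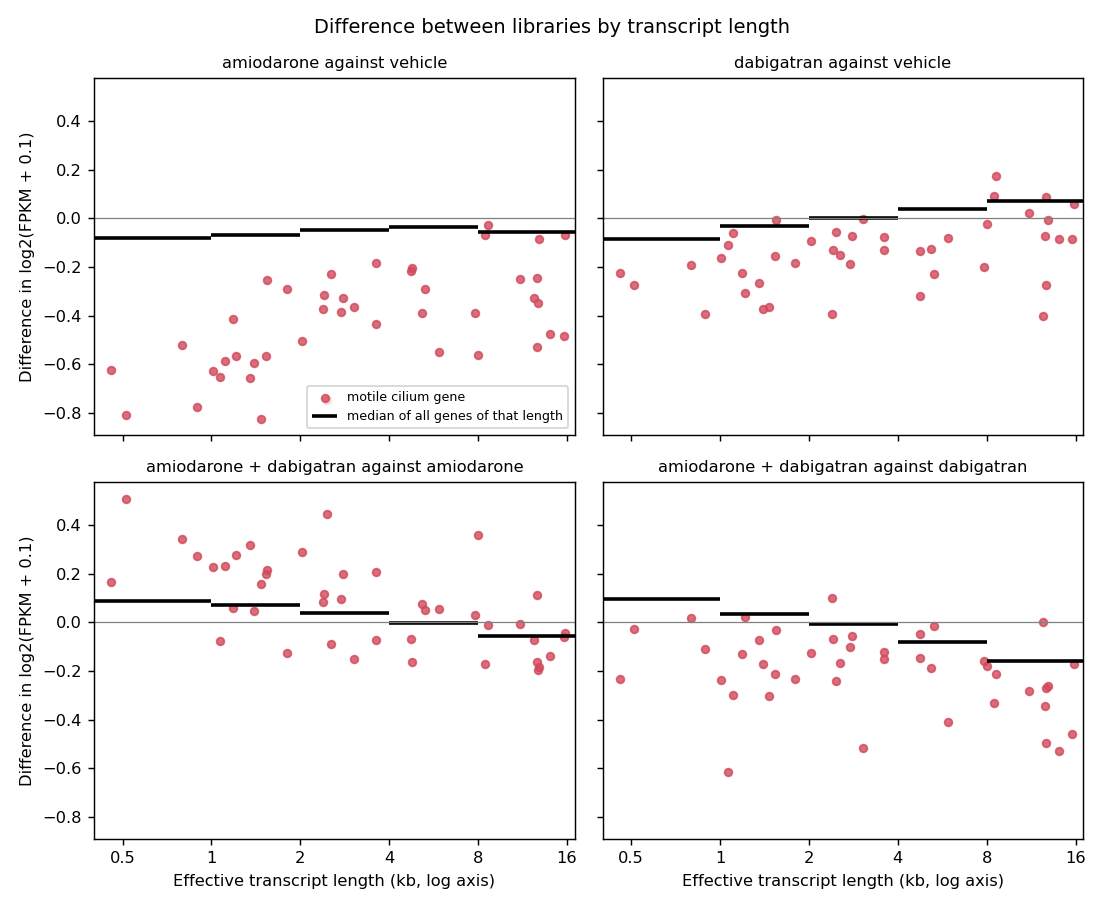
Difference in log2(FPKM + 0.1) against effective transcript length in kb on a log axis, 1 panel per comparison, with red points for the 43 motile cilium genes and black lines for the median of all genes in each length class. With amiodarone against vehicle the members run from a median of -0.70 under 1 kb to -0.25 at 8 kb or more, while the lines for all genes stay between -0.08 and -0.04.

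Other genes of the motile cilium lay in the same direction. Of 84 measured genes from lists of further axonemal dyneins and docking factors, dynein assembly factors and other structural axoneme genes, 81 were lower with amiodarone than with vehicle (58.8% of all genes), 61 of them beyond counting error (29.4%) and 23 by at least 1.5-fold (7.09%), and none was higher beyond counting error. Their median log2 difference was -0.44. Wdr63, an inner arm intermediate chain, had 9.63 FPKM with vehicle, 5.46 after amiodarone, 8.74 after dabigatran and 6.35 after both. Among dyneins and docking factors Tctex1d4, Ccdc114 and Dnah7a were also at least 1.5-fold lower, with ratios of 0.631, 0.638 and 0.594. Dnah7a has near-identical copies that could share its reads. The assembly factor Ccdc103 had a ratio of 0.561, and the structural genes Cfap157, Spag8, Fank1 and Morn5 had ratios from 0.551 to 0.575.

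The genes that act before the axoneme is built divided. Of 12 regulators of multiciliation 10 were measured, Mcidas and Cdc20b having under 20 reads on average, and 5 of the 10 were lower with amiodarone beyond counting error (29.4% of all genes). Myb, which acts early in multiciliated cell formation, had 7.47 FPKM with vehicle and 7.44 with dabigatran, against 4.84 with amiodarone and 4.92 with both. Deup1, which serves centriole amplification, followed the same split at 1.99 and 1.88 against 1.24 and 1.09 FPKM. Foxn4 did so too, at 0.63 and 0.50 against 0.18 and 0.20 FPKM. Trp73 and Rfx2 had ratios of 0.768 and 0.792. Ccno, Gmnc, Tfdp1, E2f4 and E2f5 lay within counting error of vehicle in the amiodarone library. The 32 transport genes of all cilia, motile or not, had 16 members lower beyond counting error (29.4% of all genes), none by 1.5-fold (7.09%), and a median of -0.19.

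**Figure D5:**
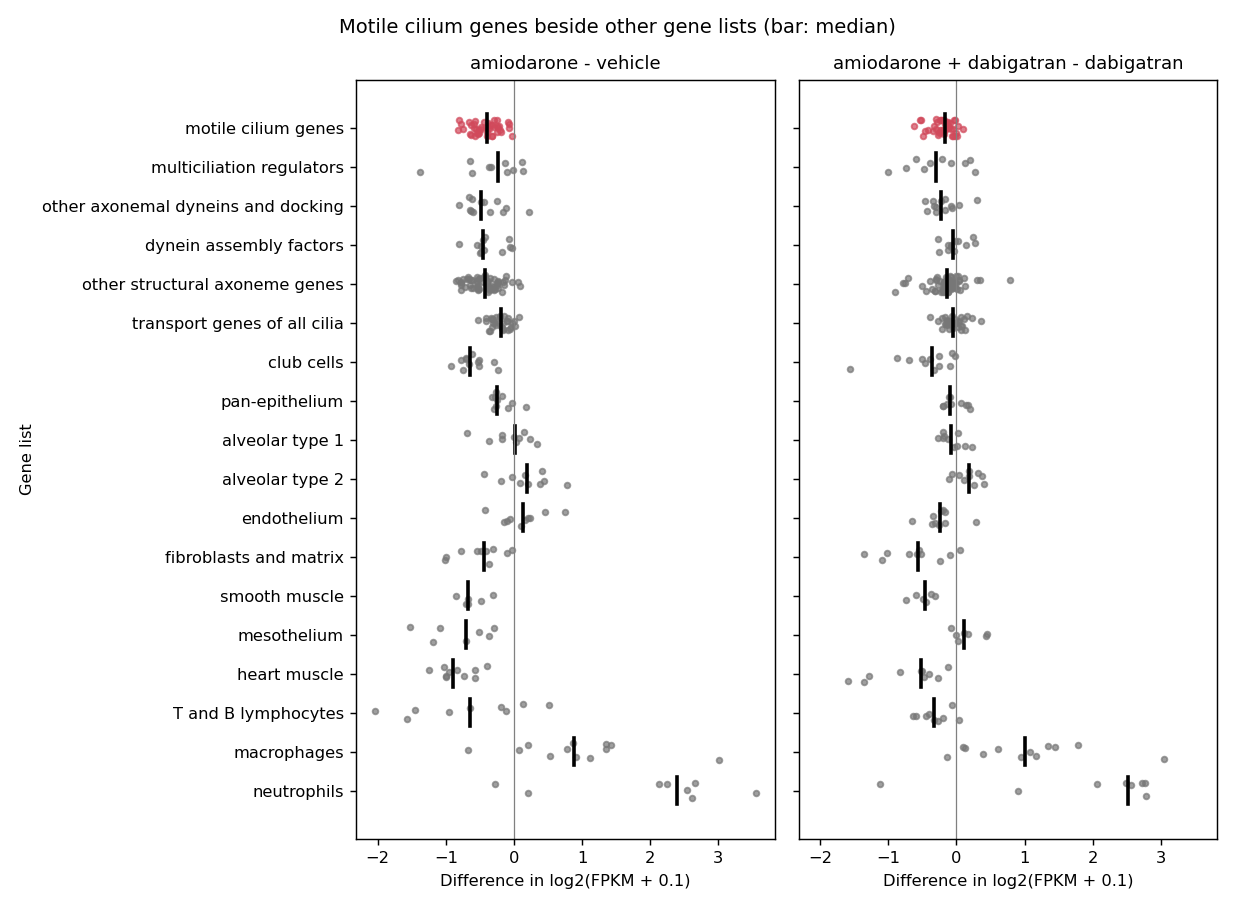
Difference in log2(FPKM + 0.1) for each gene, amiodarone minus vehicle on the left and amiodarone + dabigatran minus dabigatran on the right, by gene list, with a black bar at the median and the 43 motile cilium genes in red. On the left the medians are -0.39 for motile cilium genes, -0.64 for club cells, -0.90 for heart muscle, 0.19 for alveolar type 2 cells and 0.89 for macrophages.

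Markers of other cell types differed between these libraries as well. Club cells, the secretory neighbours of ciliated cells in the airway lining, had all 12 listed genes lower with amiodarone beyond counting error (29.4% of all genes). Their median log2 difference was -0.64, and no gene was at 0. Their summed level was 138342 FPKM with vehicle, 83394 after amiodarone, 111426 after dabigatran and 108061 after both, most of it from Scgb1a1. Genes of alveolar type 2 cells, which lie outside the airways, had 7 of 10 higher (18.8% of all genes) and 3 lower (29.4%) beyond counting error. Their median was 0.19, with sums from 26111 to 28205 FPKM. In abundant genes the intervals are narrow, so small differences also lie beyond counting error. Genes used across epithelia had a median of -0.26, and those of alveolar type 1 cells 0.01.

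Heart muscle genes, known from the heart and from the walls of pulmonary veins in mice, summed to 1890 FPKM with vehicle, 1004 after amiodarone, 1315 after dabigatran and 904 after both. All 10 were lower with amiodarone beyond counting error (29.4% of all genes), and none was at 0. Smooth muscle genes, which mark airway and vessel walls, were lower beyond counting error in 6 of 6 (29.4% of all genes). They summed to 598, 376, 568 and 407 FPKM in the same order. Macrophage genes were higher beyond counting error in 10 of 12 (18.8% of all genes), with sums of 343, 1126, 370 and 1341 FPKM. Neutrophil genes were likewise higher in 7 of 8 measured, with sums of 117, 626, 103 and 448 FPKM. The share of airway tissue in each piece of lung was not measured, and the part of these cell types in the motile cilium values was not tested.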

How the data were processed

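Left lung RNA was sequenced by DNBseq after poly(A) selection, with 1 library for each of 4 groups. The authors used HISAT 2.0.4 on the genome GRCm38.p6, Bowtie2 2.2.5 on reference gene sequences, and RSEM 1.2.8 for the deposited estimated counts of reads per gene. The deposited normalized values carry no stated unit and are read as FPKM, because reads per unit of value differ between libraries by the ratio of their total reads (1.07 for amiodarone to vehicle). A further 8 deposited columns, means over 2 libraries, were not used. FPKM are scaled to each library's total, so a few abundant genes can shift all others. The 10 genes with most reads took 8.37% to 10.4% of a library.

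Reads were rounded to whole numbers for the exact intervals (scipy 1.17.1, Python 3.11.15, pandas 2.3.3, numpy 2.4.6), which use the reads of both libraries rescaled to FPKM. Figures were drawn with matplotlib 3.10.9. Differences used log2(FPKM + 0.1), which understates changes of low genes, over genes with a mean of at least 20 reads, and a fold call needs 1.5-fold on that scale. The intervals were tested on simulated reads that held counting error only, with the same transcript length in both libraries. That setting did not try the rescaling to lengths estimated in each library, nor any variation beyond counting. A count of 0 would allow 3 reads, at most 1.71e-05% of a library. Reads of Dnah11, Cfap43, Ccdc39 and Tppp3 were not whole numbers and may be shared with other genes. Whether reads were counted by strand is not given in the sources used here.

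The members and all gene lists were chosen with earlier results of these data known. Given with all 4 values are the transcription factors, the members with the 8 highest and 8 lowest amiodarone to vehicle ratios, the 4 with the largest ratio in either direction in each other comparison and the 5 most abundant. Of other lists, up to 4 genes with the largest change of at least 1.5-fold beyond counting error are named, and any further gene was chosen after its values were seen. Alternatives were a pseudocount of 1, thresholds of 20% lower (25% higher) and of 2-fold, other read filters, rescaling by the median ratio, leaving out the 10 genes with most reads, leaving out Rfx3, Tppp3 and Tubb4b, and, chosen after seeing the data, centring on genes of the same length class. Promoter sequences are from RefSeq.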

Additional observations from a re-analysis of the deposited data

Results flagged for a closer look

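For 7 motile cilium genes the dabigatran library was lower than the vehicle library beyond counting error, while the combination library was higher than the amiodarone library beyond counting error. These pairs share no library. With 1 library per group the difference between the 2 ratios was not tested, and 3.56% of all genes measured showed this pattern, compared with 16.3% of the 43. All 7 are short transcripts. Of all genes under 1 kb the pattern was present in 12.4%, and of those of 1 to 2 kb in 4.51%, compared with 4 of 4 and 3 of 11 members of these lengths. The part of transcript length in it was not tested. The ratio without amiodarone and the ratio with it were 0.826 and 1.42 for Fam183b, 0.760 and 1.21 for Rsph9, and 0.831 and 1.2498 for Tekt1. They were 0.806 and 1.22 for Ccdc113 and 0.875 and 1.27 for Ccdc153. For Dynlrb2 they were 0.856 and 1.12, and for the abundant Tppp3 0.894 and 1.17.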

How the results depend on the processing

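With 1 library per group nothing here measures the spread between animals. No paired analysis was possible because each group has 1 library and no test was made. Of 160 recomputed values 142 were classed as the same as the reported one, and no direction was reversed. Part of them could not change: all 43 members pass each read filter, and a count of 0 at 1.5-fold stays 0 at 2-fold. The class is also wide. It takes in the fall of the median log2 difference between the combination and amiodarone from 0.06 to 0.02 after rescaling by the median ratio. The number of members at least 1.5-fold lower with amiodarone than with vehicle went from 10 to 6 after rescaling by the median ratio, to 5 after centring on genes of the same length class, to 29 where at least 20% lower counts, and to 0 at 2-fold. At 20% lower it was 5 for dabigatran against vehicle and 8 for the combination against dabigatran, and 4 members were at least 25% higher in the combination than with amiodarone. The single member 1.5-fold lower in the combination than with dabigatran was lost (0) with a pseudocount of 1 and at 2-fold. Between the combination and amiodarone, rescaling gave 8 members lower beyond counting error in place of 4, and 10 higher in place of 15. The shares of all genes under these alternative settings were not computed. The counts therefore show only how the number of members depends on the setting. Without Rfx3, Tppp3 and Tubb4b the members took 0.166% of reads with vehicle, 0.126% with amiodarone, 0.151% after dabigatran and 0.128% after both. Without the 10 genes with most reads they took 0.296%, 0.217%, 0.269% and 0.236%, all 43 members being kept and only the total being smaller.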

Other observations

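Other lists of lung cells differed between the libraries too, and the counts given here are of genes beyond counting error. Of all genes measured, 29.4% were lower and 18.8% higher beyond it with amiodarone than with vehicle. In the combination library against the dabigatran library the shares were 23.1% and 18.8%. Genes of the mesothelium, the outer lining of the lung, were lower with amiodarone than with vehicle in 7 of 7, with a median log2 difference of -0.70. In the combination library against the dabigatran library their median was 0.11, with 3 of 7 higher and none lower beyond counting error. Fibroblast and matrix genes were lower in 9 of 10 and in 8 of 10 in these pairs, with medians of -0.44 and -0.56. Adipocyte genes were lower in 5 of 6 and in 4 of 6, with medians of -1.09 and -0.84. Endothelial genes had medians of 0.13 and -0.24. Of the 9 T and B lymphocyte genes 5 were lower beyond counting error in each pair, with medians of -0.64 and -0.34. Of 4 neuroendocrine genes 1 was higher beyond counting error with amiodarone and none in the second pair, where the median was 0.33. Of 2 measured basal cell genes 1 was lower with amiodarone. The neuroendocrine and basal cell lists are too short to be set against the shares of all genes.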
